A study of Arabidopsis thaliana and Arabidopsis thaliana x Arabidopsis arenosa with 9 samples.

Results

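The second library of each cross was set against the first in whole seeds of Arabidopsis thaliana taken 3 days after pollination, for the cross Col-0 X C24 (Col-0 mothers) and its reciprocal, written C24 X Col-0 (C24 mothers). Members were the loci with at least 10 reads in at least 2 of the 4 mRNA-seq libraries, and 16779 of the 33602 loci in the table met this minimum. Of these, 13781 had at least 10 reads in all 4 libraries. The seed parents were the male-sterile lines ColA9 and C24A9, which are hemizygous for a sterility construct, and the pollen came from the wild-type accessions C24 and Col-0. All 4 libraries therefore come from first-generation hybrid seeds on male-sterile mothers, and each holds seed coat, endosperm and embryo together. The methods of the study describe 2 biological replicates per cross and place a treatment with duplex-specific nuclease, followed by another round of PCR, on replicate 2 of both crosses. Replicate and treatment therefore cannot be told apart in these 4 libraries.

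Duplex-specific nuclease cuts double-stranded DNA. When a cDNA library is melted and allowed to reanneal, copies of abundant transcripts find their partners first and are cut, whereas copies of rare transcripts stay single-stranded. Re-amplification by PCR can also favour or disfavour fragments by base composition and length. In a seed of this age the maternal seed coat makes up most of the tissue and produces flavonoids and wall material, while the endosperm is still mostly a syncytium and the embryo is a few cells.

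Values are CPM, read counts scaled to a common library size after TMM normalisation, and the log2 change is that of replicate 2 over replicate 1 with the cross as a term in the model. Library totals ran from 3538335 to 6498145 reads with TMM factors of 0.692 to 1.26, and 19828 to 20580 loci had a read in 3 of the libraries. The reciprocal replicate 2, from C24 mothers, stood apart, with reads on 29250 loci. It alone reached 10 reads at 3729 loci, of which 24.5% were annotated pseudogenes, and it had a read on 2986 of 3911 pseudogenes where the other 3 libraries had one on 225 to 383. Those 3729 loci failed the minimum of 2 libraries and are not members. The ratio within Col-0 X C24 does not use that library, so both crosses' own ratios are given throughout.

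Relative to all loci, replicate 2 held less of the abundant, GC-rich and intron-poor transcripts and more of the exon-rich ones in both crosses. Rare and GC-poor loci gained mainly in the reciprocal cross, with medians of 0.81 under 3 CPM and 0.52 in the lowest GC quintile. With Col-0 mothers these medians were 0.01 and 0.05. The quasi-likelihood test of edgeR called 542 loci higher in replicate 2, or 3.23% of those tested, and 1121 lower, or 6.68%, at an adjusted p under 0.05. The loci called lower had a median log2 change of -1.50, and those called higher one of 1.82. Of the 1121, 1118 were lower in both crosses, and of the 542, 539 were higher in both. The test takes disagreement between the crosses as error, so this agreement largely follows from the call and is a description. All loci together had a median log2 change of 0.07.

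The ratios of the 2 crosses, computed on CPM + 0.5, had the same sign at 69.5% of the loci. At least 2-fold higher in both crosses were 799 loci (4.76%), and at least 2-fold lower in both were 954 (5.69%). Opposite 2-fold ratios were seen at 10 loci that were higher with Col-0 mothers and at 162 that were higher in the reciprocal cross. The split of the calls moved with the scaling. Higher loci made up 32.6% of calls with TMM, 45.8% with upper quartile scaling and 67.1% with total reads alone, where 255 loci were higher and 125 lower and the median of all loci shifted to 0.57. Without the cross term edgeR called 0 loci, with 1978 at an unadjusted p under 0.05, and the same paired design in DESeq2 called 319 higher and 976 lower.

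**Figure D1:**
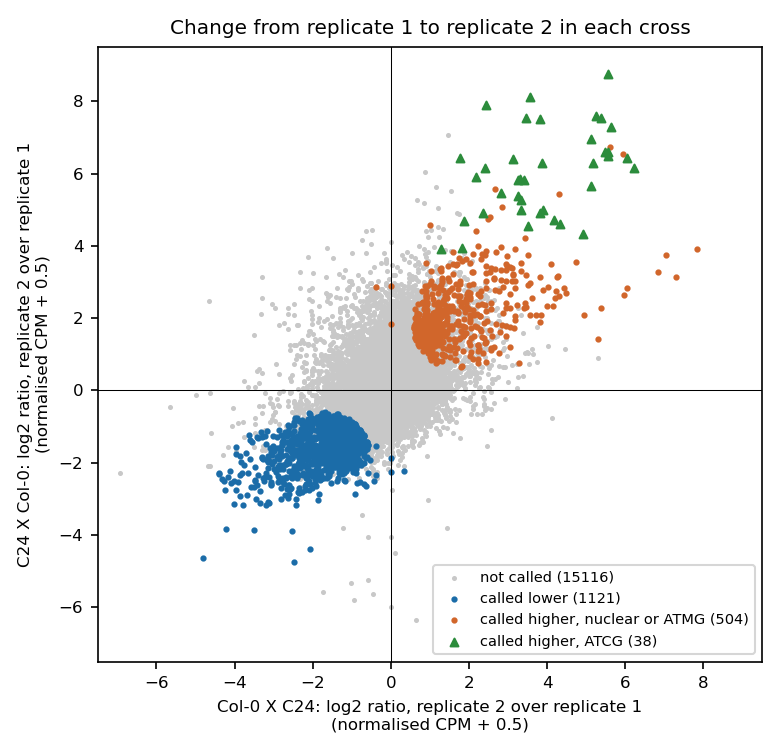
Each point is 1 of the 16779 loci, with its log2 ratio of replicate 2 over replicate 1 in Col-0 X C24 on the x axis and in the reciprocal cross on the y axis (normalised CPM + 0.5). Loci called lower lie at the lower left, loci called higher at the upper right, and the 38 called loci with ATCG identifiers (triangles) mostly lie farther up than across.

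A few stretches of coding sequence are shown as examples of the extremes of base composition among the nuclear protein-coding loci with the lowest p-values, and the choice itself fixes their contrast. They are the first 150 coding bases of the 3 most GC-rich of the 10 loci called lower and of the 3 most GC-poor of the 10 called higher, read from TAIR10.1 on the coding strand, with G and C in capitals.
AT5G20740, lower, chr5:7026437-7026586, minus strand: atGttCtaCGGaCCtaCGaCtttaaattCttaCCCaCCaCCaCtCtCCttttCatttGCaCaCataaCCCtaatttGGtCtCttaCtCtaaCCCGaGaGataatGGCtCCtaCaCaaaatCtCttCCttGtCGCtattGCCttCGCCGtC
TCP11, lower, chr5:2680828-2680977, plus strand: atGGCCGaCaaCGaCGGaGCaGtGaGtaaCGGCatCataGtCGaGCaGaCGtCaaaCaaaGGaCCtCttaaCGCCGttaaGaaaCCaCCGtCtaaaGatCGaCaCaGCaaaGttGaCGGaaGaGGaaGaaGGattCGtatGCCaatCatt
AT5G10830, lower, chr5:3423731-3423880, plus strand: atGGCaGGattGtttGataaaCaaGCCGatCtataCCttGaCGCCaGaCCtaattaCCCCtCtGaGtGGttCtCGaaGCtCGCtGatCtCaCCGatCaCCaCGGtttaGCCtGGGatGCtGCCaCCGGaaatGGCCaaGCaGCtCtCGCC
AT5G38180, higher, chr5:15229856-15230005, plus strand: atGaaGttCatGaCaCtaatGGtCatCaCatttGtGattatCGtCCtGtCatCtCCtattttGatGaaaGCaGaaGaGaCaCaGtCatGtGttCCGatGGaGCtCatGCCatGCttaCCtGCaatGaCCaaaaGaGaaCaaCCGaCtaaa
AT5G38195, higher, chr5:15246991-15247140, plus strand: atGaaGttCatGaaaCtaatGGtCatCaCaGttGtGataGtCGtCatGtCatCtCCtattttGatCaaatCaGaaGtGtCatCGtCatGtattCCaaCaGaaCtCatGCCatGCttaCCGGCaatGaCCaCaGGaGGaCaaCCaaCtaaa
GASA6, higher, chr1:28053378-28053737, plus strand, joined over an intron: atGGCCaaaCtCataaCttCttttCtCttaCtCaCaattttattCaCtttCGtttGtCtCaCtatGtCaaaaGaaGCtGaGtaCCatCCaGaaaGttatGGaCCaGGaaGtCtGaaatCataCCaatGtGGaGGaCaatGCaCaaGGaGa
Over the whole coding sequence GC was 52.5%, 54.0% and 50.9% in the 3 that were lower and 36.1%, 37.8% and 41.2% in the 3 that were higher. The bases shown contrast less as sets, at 44.0%, 48.0% and 53.3% in the lower and 41.3%, 40.7% and 38.7% in the higher. Other loci of these sets go the other way, with a transcript GC of 35.22% in AT3G57450, which was lower, and of 43.85% and 42.8% in AT1G71250 and AT1G76720, which were higher.

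Abundant loci lost share and rare loci gained it in both crosses. So that no library of a ratio also set its ranking, loci were ranked by their reads in replicate 1 of the other cross. That library shares its replicate number with the denominator of the ratio, so the ranking is not independent of it. The 10 highest ranks took 12.8% of the first library of Col-0 X C24 and 7.11% of the second, and in the reciprocal cross 20.9% and 14.6%. Ranks 11 to 100 differed less in Col-0 X C24, at 14.7% and 13.7%, than in the reciprocal cross, at 15.4% and 10.5%. Ranks past 1000 and up to 5000 took more in replicate 2, with 27.3% and 30.5% with Col-0 mothers and 22.9% and 29.0% in the reciprocal cross. Beyond rank 10000 the share was 5.15% and 8.17% with Col-0 mothers, and 3.32% and 8.92% in the reciprocal cross. The 95% Wilson intervals of these shares, which cover counting error only, do not meet between replicates in any class of either cross, and with 1 library per cross and replicate there is no further error to set them against.

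Most loci of the upper classes followed. Among ranks past 100 and up to 1000 the ratio was below 0 on the log2 scale at 84.0% of the loci with Col-0 mothers (median -0.57) and at 83.7% in the reciprocal cross (median -0.76). Past rank 10000 it was below 0 at 38.6% (median 0.23) and 30.9% (median 0.50). Ranking by reads per kilobase, which takes out transcript length, gave medians of -0.59 and -0.80 for ranks past 100 and up to 1000. Ranking by replicate 2 of the other cross gave smaller shifts, with -0.26 and -0.44 for these ranks and 0.04 and 0.29 past rank 10000. The top 10 of that ranking had medians of -1.45 with Col-0 mothers and 0.09 in the reciprocal cross. By mean CPM over the 4 libraries, edgeR called 31 of 83 loci lower and 0 higher above 1000 CPM, and 0 lower and 16 higher among the 1493 loci under 3 CPM. Under 3 CPM the minimum of 10 reads leaves little room for a lower call, and some loci passed it only through replicate 2. The calls under 3 CPM are therefore a description. In that lowest class the median was 0.01 with Col-0 mothers and 0.81 in the reciprocal cross, so the gain of the rarest loci was seen in the cross whose replicate 2 has reads on many more loci.

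**Figure D2:**
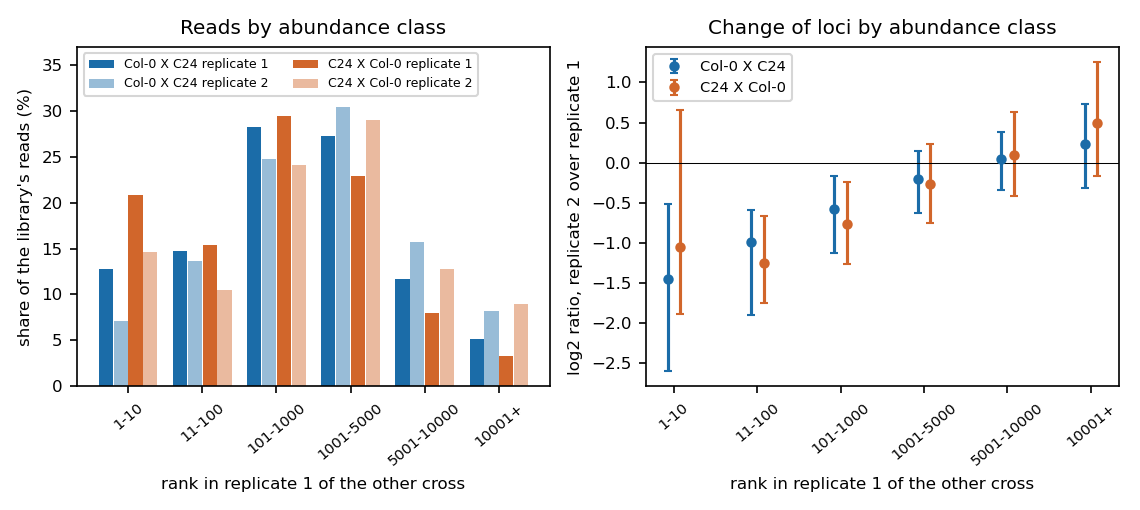
Left, percent of each library's reads in 6 classes of loci ranked by replicate 1 of the other cross, with replicate 1 in full and replicate 2 in light colour. Right, median log2 ratio of replicate 2 over replicate 1 in each class, with the quartiles as bars. The medians are -1.45 and -1.05 in the top 10, -0.99 and -1.25 in ranks 11 to 100, and rise from there to 0.23 and 0.50 beyond rank 10000.

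The 10 most abundant loci did not move as a block. LTP6 (AT3G08770), a small secreted lipid transfer protein and the most abundant transcript, stood at 42165 CPM in replicate 1 and 9245 CPM in replicate 2 from Col-0 mothers, and at 111078 and 26563 CPM in the reciprocal cross. TT4 (AT5G13930), chalcone synthase and the entry enzyme of flavonoid synthesis, was at 11019 and 1322 CPM, and at 31917 and 5522 CPM. GRP5 (AT3G20470), a glycine-rich wall protein, was at 7803 and 548 CPM, and at 16532 and 4228 CPM. The fourth call was AT3G49270, annotated as extensin-like, at 860 and 138 CPM, and at 17202 and 2211 CPM. All 4 fell, with log2 changes of -2.13 ± 0.46, -2.79 ± 0.44, -2.90 ± 0.53 and -2.80 ± 0.42 (SE) and edgeR adjusted p of 0.011, 0.00187, 0.00548 and 0.00136. Without the reciprocal replicate 1, a fit that cannot hold the cross term put AT3G49270 at 0.45.

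The other 6 did not pass, and 2 of them were higher in replicate 2 in both crosses. GILT (AT4G12960), a thiol reductase of the gamma interferon responsive type, was at 23438 and 38533 CPM, and at 7306 and 15124 CPM (log2 change 0.88 ± 0.43, adjusted p = 0.221 in edgeR). DELTA-VPE (AT3G20210), a vacuolar processing protease of the seed coat, was at 8405 and 10677 CPM, and at 3047 and 8946 CPM (0.95 ± 0.44, adjusted p = 0.207). GILT was called higher with cyclic loess offsets (2.40, adjusted p = 0.00171) and with DESeq2 (0.84, adjusted p = 0.0457), and was at -0.02 without replicate 2 from Col-0 mothers. DELTA-VPE was called higher with cyclic loess offsets (2.27, adjusted p = 0.00895). Among the 10, GRP5 and TT4 have the highest transcript GC, 47.26% and 47.86%, GILT and DELTA-VPE are at 39.24% and 39.34%, LTP6, which fell, is at 40.22%, and AT4G15750, with a change of 0.06, has the lowest at 36.77%.

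The 2 columns marked N carry the names of the replicate 1 libraries, and their making is not described in the sources used here. In them LTP6 was at 771 and 889 CPM of the column's total and TT4 at 974 and 989. The 100 loci ranked highest by the other cross took 6.63% and 9.11% of the reads there, against 20.9% and 25.2% in the replicate 2 libraries.

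Loci called lower shared short transcripts, few exons and high GC. The 1108 called nuclear protein-coding loci had a median transcript of 1267 bases, 2 exons and 42.7% GC, against 1762 bases, 5 exons and 41.4% GC for all 16442. Of the 10 nuclear protein-coding loci with the lowest p, 7 have a single exon. AT3G57450, a protein of no annotated function, was at 98.3 and 9.21 CPM with Col-0 mothers and at 160 and 18.2 CPM in the reciprocal cross (log2 change -3.26 ± 0.31, adjusted p = 6.93e-05). RHA3B (AT4G35480), a RING-H2 finger protein of the ubiquitin ligase type, was at 69.1 and 3.82 CPM, and at 90.1 and 9.74 CPM. HCD1 (AT4G14440), annotated as a 3-hydroxyacyl-CoA dehydratase, was at 204 and 13.5 CPM, and at 675 and 89.8 CPM. JAL23 (AT2G39330), a jacalin-related lectin, was at 228 and 22 CPM, and at 19.7 and 2.44 CPM. Replicate 2 lay below both replicate 1 libraries in the first 3 of these, and for JAL23 the crosses differ in level so that replicate 2 from Col-0 mothers lies above the reciprocal replicate 1. The rest of the 10 are AT3G07910, AT3G59840, AT5G20740, AT5G66590, TCP11 and AT5G10830, with log2 changes from -3.29 to -2.73.

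**Figure D3:**
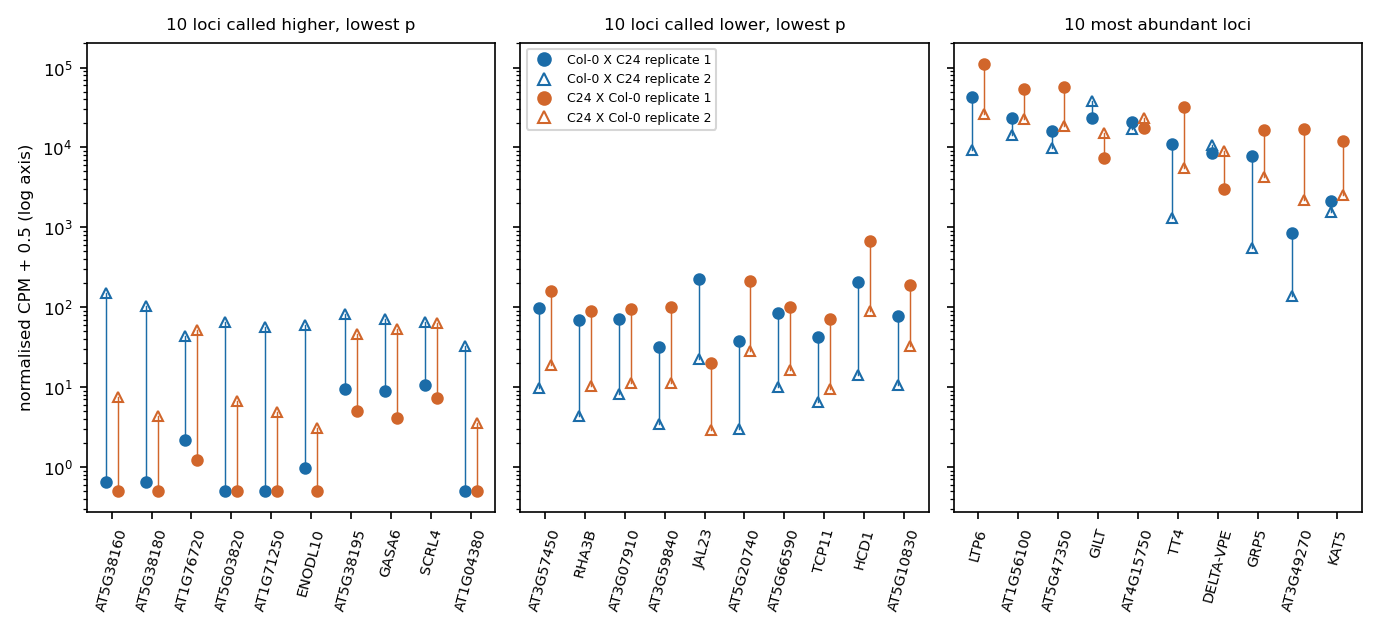
Normalised CPM + 0.5 on a log axis in each of the 4 libraries for the 10 nuclear protein-coding loci called higher with the lowest p, the 10 such loci called lower with the lowest p and the 10 most abundant loci; filled circles are replicate 1 and open triangles replicate 2, joined within a cross. The first 10 were high mainly in Col-0 X C24 for AT5G38160, AT5G38180, AT5G03820, AT1G71250, ENODL10 and AT1G04380, and alike in both crosses for AT1G76720, AT5G38195, GASA6 and SCRL4.

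Genes of photosynthesis encoded in the nucleus were among the groups with most calls. Of 50 tested, 22 fell and 1 rose, with a median log2 change of -0.83 (medians of -1.25 with Col-0 mothers and -0.66 in the reciprocal cross). Among the 16 chlorophyll a/b binding proteins, which form the light-harvesting antenna, 10 fell and 0 rose. LHCB6 (AT1G15820), a minor antenna protein of photosystem II, was at 96.9 and 11.7 CPM, and at 280 and 61.4 CPM, a log2 change of -2.59 ± 0.32 (adjusted p = 0.000415, edgeR). FD1, a ferredoxin that takes electrons from photosystem I, and PSBX, a small subunit of photosystem II, changed by -2.02 and -1.63. The neighbouring genes CAB1, CAB2 and CAB3 on chromosome 1, chosen after their values were seen, were all called lower and formed a run of 3 adjacent tested loci. The exception was PSAN (AT5G64040), a subunit of photosystem I, at 47.0 and 105 CPM, and at 78.0 and 132 CPM (0.96 ± 0.28, adjusted p = 0.0464). With transcript GC offsets 9 fell and 0 rose and the median relative to all loci went from -0.89 to -0.43, and with total reads alone 1 fell and 1 rose. Without the reciprocal replicate 1, in a fit with no cross term, the median of the list was 0.12 relative to all loci. PSAN has a transcript GC of 39.1%, and the median of the list is 43.5%.

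Wall and surface proteins formed the second large set. Of 37 arabinogalactan proteins, proline-rich or fasciclin-like proteoglycans of the cell surface, 16 fell and 0 rose, and the median was -1.49 (-2.21 and -0.92 in the crosses). AGP12 (AT3G13520), a short arabinogalactan peptide, was at 925 and 60.9 CPM, and at 922 and 160 CPM (-3.22 ± 0.42, adjusted p = 0.000823). AGP21 and FLA8 changed by -2.16 and -2.29. Of 38 expansins and xyloglucan enzymes, which loosen the wall, 7 fell and 0 rose, led by EXPB4 (AT2G45110) at 50.7 and 5.39 CPM, and at 140 and 26.3 CPM. Of 96 pectin enzymes and their inhibitors 13 fell and 1 rose, of 18 aquaporins 6 fell and 0 rose, and of 36 peroxidases 5 fell and 0 rose. The percentages called lower were 13.5, 33.3 and 13.9, beside 6.68 of all loci. They were 43.2 for arabinogalactan proteins and 18.4 for expansins and xyloglucan enzymes. The aquaporin PIP1;4 (AT4G00430), a water channel of the plasma membrane, was at 275 and 39.5 CPM, and at 225 and 78.4 CPM.

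The lists of cytochrome P450 and fatty acid enzymes were near the share of all loci called lower, at 4.71% and 9.28% beside 6.68%, and the P450 median was 0.04. CYP86A2 (AT4G00360), a fatty acid hydroxylase of cutin synthesis, was at 1047 and 75.9 CPM with Col-0 mothers and at 5539 and 612 CPM in the reciprocal cross, a log2 change of -3.48 ± 0.41 (adjusted p = 0.000327, edgeR). Its relatives CYP86A8 and CYP86A4 changed by -2.46 and -2.19, and these 3, named as the P450 genes called lower with the lowest p, are among the 4 of 85 cytochrome P450 genes that fell, while 1 rose. Of 97 genes of fatty acid synthesis and elongation 9 fell and 0 rose, among them the acyl carrier protein ACP2 at 586 and 189 CPM, and at 1465 and 276 CPM. Of 15 flavonoid enzymes 4 fell and 0 rose, with F3H and TT5, the enzymes that follow TT4 in the pathway, at log2 changes of -1.51 and -1.49. With cyclic loess offsets the flavonoid median turned to 0.03 relative to all loci, and with transcript GC offsets 0 of the flavonoid enzymes were called. Strand is not given for the counts, and annotated exons on the opposite strand overlap F3H by 1415 bases, CYP86A2 by 782 and AGP21 by 364 of its 427. Of loci described further on, they overlap TIL1 by 1756 bases, SDG29 by 979, SUVR5 by 367 and SIM by 249. Shorter overlaps are present at other named loci, such as RHA3B and GASA6. Reads of such pairs cannot be told apart.

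Ribosomal proteins and histones had many calls of modest size. Of 315 cytosolic and organellar ribosomal proteins 72 fell and 4 rose, with a median of -0.53 (-0.37 and -0.69). The largest falls by p were in AT2G09990, AT2G40510 and AT3G04230, all annotated as small-subunit proteins, and AT2G09990 was at 176 and 18.0 CPM, and at 343 and 60.6 CPM. The higher ones included RFC3 (AT3G17170) and PSRP3/1 (AT1G68590), which are of the plastid ribosome, with changes of 1.55 and 1.20. Of 93 loci on the histone list 27 fell and 2 rose. Histone H3 genes AT1G09200 and AT5G65360 changed by -2.34 and -2.14 and HTB1, a histone H2B, by -1.84. The 2 that rose are not histones: LEC1, a subunit of the transcription factor NF-Y with a histone fold, and SUVR5, annotated as a histone-lysine methyltransferase. Of the 27, 3 are histone deacetylases. Proteasome subunits had 6 lower and 0 higher of 51, and their median was -0.03 with Col-0 mothers and -0.57 in the reciprocal cross. With cyclic loess offsets that median turned to 0.06 relative to all loci.

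The elongation factor genes AT1G07920, AT1G07930 and AT1G07940 lie in a row and were called lower, but their counts are not separable: 61.3% of the 80-base windows of AT1G07920 occur unchanged in related loci. Of 83 initiation and elongation factors 7 rose and 5 fell (8.43% and 6.02%, beside 3.23% and 6.68% of all loci). Those that rose included AT1G76720, AT1G76810 and AT1G76820 on chromosome 1, annotated as eIF-2 family proteins. AT1G76720 was at 1.69 and 42.9 CPM, and at 0.712 and 51.6 CPM (5.19 ± 0.44, adjusted p = 3.2e-05, edgeR), and 23.5% of its windows are shared with the other 2. The abundant AT1G76810 was at 100 and 341 CPM, and at 69.3 and 428 CPM.

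Loci of the chloroplast genome were higher in replicate 2. Of 47 loci with ATCG identifiers 38 were called higher and 0 lower, with a median log2 change of 5.70 (3.34 and 5.81 in the crosses). Their identifiers are not paired with names in the annotation used. ATCG00790 was at 1.54 and 134 CPM with Col-0 mothers and at 1.90 and 206 CPM in the reciprocal cross, or 10 and 596 reads and 8 and 1271 reads. Together the ATCG loci took 0.00679% and 0.187% of reads with Col-0 mothers, and 0.00562% and 0.63% in the reciprocal cross. In the columns marked N they took 0.0122% and 0.018%. For 33 of the 47, both replicate 1 libraries held fewer than 10 reads, so these passed the minimum only through replicate 2 and had to be higher there. Of the 14 plastid loci with at least 10 reads in a replicate 1 library, 9 were called higher and 0 lower, with a median of 4.06 (2.67 and 5.36).

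Mitochondrial loci had fewer calls. Of 18 with ATMG identifiers 2 rose and 0 fell (11.1% called higher), with a median of 1.18 (0.82 and 1.00 in the crosses), and 13 were higher in both crosses and 3 lower in both. Their share of reads was 0.0993% and 0.0501% with Col-0 mothers and 0.207% and 0.353% in the reciprocal cross. AT2G07783, a pseudogene on chromosome 2, was at 2.61 and 191 CPM, and at 4.03 and 419 CPM. The mitochondrial genome holds 96.4% of its 80-base windows without a change, so its reads cannot be assigned to the nucleus. The list of pseudogenes had 10 higher and 6 lower of 162 tested, with a median of 0.00 with Col-0 mothers and 0.67 in the reciprocal cross, and of -0.03 relative to all loci in a fit without the reciprocal replicate 2.

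Among nuclear protein-coding genes, a cluster of small lipid transfer family proteins on chromosome 5 led the calls. AT5G38160 (chr5:15225767-15226208) was at 0.154 and 148 CPM in Col-0 X C24, or 1 and 661 reads, and at 0 and 6.98 CPM in the reciprocal cross, or 0 and 43 reads. Against a floor of 3 reads it was at least 9.81-fold higher in the reciprocal cross. AT5G38180 (chr5:15229810-15230243) had 1 and 453 reads, and 0 and 24 reads. AT5G38160 and AT5G38180 met the minimum only through the replicate 2 libraries, so they had to be higher there. AT5G38195 (chr5:15246910-15247329) was found in all 4 libraries, at 8.91 and 82.0 CPM, and at 4.51 and 45.9 CPM (3.26 ± 0.32, adjusted p = 8.32e-05, edgeR). No 80-base window of the 3 was shared with another locus. On the whole list of 45 lipid transfer proteins 8 rose and 11 fell, and the median, -0.41, turned to 0.37 relative to all loci without the reciprocal replicate 1 and to 0.10 without replicate 2 from Col-0 mothers. Those that fell included LTP6, LTPG2 (AT3G43720), a lipid transfer protein anchored to the membrane, with 1989 and 222 reads, and 1988 and 622 reads, and AT1G62790 at 294 and 26.9 CPM, and at 702 and 115 CPM.

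Some genes were nearly absent from both replicate 1 libraries. They met the minimum only through both replicate 2 libraries, so they had to be higher there, as also AT5G38160 and AT5G38180, and their number and direction are a description. The GDSL-type lipases AT5G03820 and AT1G71250 had 0 reads in each replicate 1 library, 291 and 252 reads in replicate 2 from Col-0 mothers, and 38 and 27 reads in the reciprocal replicate 2. These counts make them at least 142-fold and at least 123-fold higher with Col-0 mothers, and at least 8.67-fold and at least 6.16-fold higher in the reciprocal cross. ENODL10 (AT5G57920), an early nodulin-like protein of the cell surface, had 3 and 264 reads, and 0 and 16 reads. AT1G04380, annotated as a 2-oxoglutarate and iron dependent oxygenase, had 0 and 145 reads, and 0 and 19 reads. Under 1 CPM in both replicate 1 libraries were 177 nuclear members, of which 20 reached 10 CPM in replicate 2 from Col-0 mothers, 6 in the reciprocal replicate 2 and 1 in both. Transcription factors chosen from these after their values were seen were AIL6, an AINTEGUMENTA-like factor, with 6 and 62 reads, and 1 and 42 reads, and RL6, a RAD-like factor, with 0 and 90 reads, and 0 and 12 reads.

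Small cysteine-rich peptides divided by family. Of 86 defensin-like, LCR and SCR-like peptides, which are secreted proteins of defence and of cell signalling in reproduction, 17 rose and 5 fell (median 0.83). SCRL4 (AT1G60986) was at 9.98 and 64.7 CPM, and at 6.88 and 62.2 CPM (2.91 ± 0.31, adjusted p = 0.000187, edgeR), and LCR48 (AT3G48231) at 40.5 and 153 CPM, and at 17.3 and 52.9 CPM. Of 12 RALF peptides, which signal through receptor kinases at the wall, 4 fell and 1 rose. RALF23 (AT3G16570) was at 297 and 15.9 CPM, and at 606 and 115 CPM, and RALFL22 (AT3G05490) at 121 and 8.08 CPM, and at 164 and 33.1 CPM. With transcript GC offsets the calls on the whole list of 99 cysteine-rich peptides went from 18 higher and 9 lower to 5 higher and 11 lower, and the median relative to all loci from 0.71 to 0.14. The gibberellin-regulated peptide GASA6 (AT1G74670) rose from 8.45 to 69.8 CPM, and from 3.56 to 52.8 CPM.

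Genes of the cell cycle and of DNA replication had few calls in number, and their shares differed by list. Called higher were 6.56% of the replication and repair list, 11.5% of kinesins and 2.74% of cyclins and related kinases, beside 3.23% of all loci. Called lower were 0.0%, 0.0% and 4.11%, beside 6.68% of all loci. The replication and kinesin lists had median transcripts of 2530 and 3405 bases, against 1761 for all loci. Of the longest quintile of nuclear protein-coding loci, 4.62% were called higher and 1.52% lower, so few lower calls are not particular to these lists. Of 61 genes of DNA replication and repair 4 rose and 0 fell, with a median of 0.49 (0.33 and 0.69). They include TIL1 (AT1G08260), the catalytic subunit of DNA polymerase epsilon, with 66 and 138 reads, and 33 and 165 reads, and ORC6, a subunit of the origin recognition complex, with a change of 1.93. Of 26 kinesins, motor proteins of microtubules, 3 rose and 0 fell (median 0.94, with 24 higher in both crosses), and ZWI (AT5G65930) was at 35 and 56.4 CPM, and at 14.2 and 61.7 CPM. Of 73 cyclins and related kinases 2 rose and 3 fell, the latter including SIM (AT5G04470), an inhibitor of cyclin-dependent kinases, with 526 and 92 reads, and 1594 and 624 reads. Histones, the products most tied to DNA replication, went the other way, as given above.

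Regulators of chromatin and of RNA were mostly shifted without calls. Of 51 genes of DNA methylation and chromatin 3 rose and 0 fell, with a median of 0.45 (0.40 and 0.67), among them FIS2, VRN2 and SDG29. Of 234 pentatricopeptide repeat proteins, which process organelle RNA, 2 rose and 0 fell, although 139 were higher in both crosses and 16 lower in both. Their median was 0.25 with Col-0 mothers and 0.85 in the reciprocal cross. Called higher were 5.88% of the chromatin list and 0.855% of the pentatricopeptide repeat list, beside 3.23% of all loci. F-box proteins had 6 higher and 2 lower of 181 (3.31% and 1.1%, beside 3.23% and 6.68% of all loci). Disease resistance proteins had 1 higher and 0 lower of 50 (2.0% and 0.0%), with medians of 0.12 and 1.34 in the crosses. RNA processing factors had 4 higher and 11 lower of 145 (2.76% and 7.59%), near the shares of all loci. The splicing protein smB (AT4G20440) was at 95.8 and 17.3 CPM, and at 209 and 42.2 CPM. The helicase STRS1 (AT1G31970) was at 74.2 and 133 CPM, and at 55.3 and 169 CPM.

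Transcription factor families had small counts, to be set beside the 3.23% of all loci called higher and 6.68% called lower. Called higher were 5.36% of MYB and bHLH, 4.0% of homeobox and 6.0% of MADS-box factors, and 3.45% of auxin response genes. Called lower were 12.5% of AP2/ERF factors, and less than the share of all loci in the other families. MYB and bHLH factors had 6 higher and 3 lower of 112, homeobox factors 5 and 2 of 125, MADS-box factors 3 and 2 of 50, AP2/ERF factors 0 and 5 of 40, auxin response genes 2 and 0 of 58, and NAC and WRKY factors 0 and 0 of 32 and of 22. HDG3 (AT2G32370), a homeodomain factor, was at 6.14 and 124 CPM, and at 9.01 and 63.3 CPM (3.58 ± 0.40, adjusted p = 0.000441, edgeR). GL2 (AT1G79840), which is of the same HD-ZIP IV family and acts in the epidermis and seed coat, was at 138 and 42.9 CPM, and at 279 and 133 CPM (-1.37 ± 0.30, adjusted p = 0.012). The AP2/ERF median was 0.18 relative to all loci without replicate 2 from Col-0 mothers. CRF8 (AT1G71130), a cytokinin response factor, was at 22 and 2.25 CPM, and at 38.9 and 9.09 CPM.

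Endosperm genes and paternally expressed imprinted genes (PEGs) were mostly rare and more often called higher. The study drew the endosperm-specific list from a published expression set and the first PEG list from the literature. The de novo PEGs were found in Col-0 X A. arenosa and were not PEGs in the control crosses, which include these libraries. All these lists were used here with earlier results of these data known, so their direction is not independent evidence. Of the endosperm-specific genes 443 were tested, with 29 higher and 8 lower (6.55% and 1.81%, beside 3.23% and 6.68% of all loci) and a median of 0.39. MPK10 (AT3G59790), a MAP kinase, was at 8.75 and 49.2 CPM, and at 4.98 and 24.8 CPM. Of 52 PEGs from the literature 7 rose and 0 fell, led by HDG3, MEO (AT2G20160) at 4.91 and 26.7 CPM, and at 5.69 and 32.1 CPM, and AT1G67820, a protein phosphatase of the PP2C type. Of 19 de novo PEGs 2 rose and 2 fell. The median mean level was 4.60 CPM for the endosperm-specific list and 11.2 CPM for the PEGs, against 18.1 CPM for all loci. Among all loci at 3 to 10 CPM, 3.14% were called higher and 1.17% lower. With cyclic loess offsets the endosperm-specific median relative to all loci went from 0.33 to 0.1, with 27 higher and 12 lower. That of the literature PEGs went from 0.32 to 0.09, and that of the de novo PEGs from -0.19 to -0.57.

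Markers of the seed's parts did not all go one way. Of 12 seed coat markers 2 fell and 0 rose: TT12 (AT3G59030), a vacuolar transporter of flavonoids, at 468 and 132 CPM, and at 1157 and 244 CPM, and TT7, a flavonoid hydroxylase, with a change of -1.61. Summed over the list, seed coat markers took 11800 and 10110 CPM of the library total with Col-0 mothers, and 14930 and 10380 in the reciprocal cross. With cyclic loess offsets the median of the list, -0.50, turned to 0.09 relative to all loci, and with transcript GC offsets 0 of the 12 were called. STK and TT16, MADS-box factors of the ovule and seed coat, had changes of 0.24 and -0.11, and both changed sign under other scalings (STK -0.15 with GC offsets, TT16 0.40 with total reads alone). Of 7 tested endosperm markers 2 rose and 0 fell: FIS2 (AT2G35670), a Polycomb protein of the central cell and endosperm, at 4.30 and 23.4 CPM, and at 6.17 and 20.5 CPM, and RGE1 (AT1G49770), also known as ZHOUPI, with a change of 1.81. AGL62, a MADS-box factor of the syncytial endosperm, was at 4.15 and 2.02 CPM with Col-0 mothers. In the reciprocal cross it was at 4.51 and 12 CPM, so its direction differed between the crosses. Of the 7 endosperm markers, 4 were higher in both crosses and 0 lower in both, with medians of 0.39 and 1.32. Summed over the endosperm list, the markers took 48.3 and 120 CPM of the library total, and 56.1 and 153 in the reciprocal cross. These sums, like those of the other marker lists, are without TMM factors. Of 8 embryo markers 3 were tested, and LEC1 (AT1G21970), a regulator of embryo development, rose from 8 to 68 reads and from 13 to 89 reads. All 8 together summed to 4.46 and 39.6 CPM of the library total, and to 4.59 and 33.9. Pollen markers were below the minimum (6 genes, 0 tested), with sums of 1.69 and 2.54, and of 0.656 and 23.7, the last in the library that stands apart. In bulk samples more cells of a type and more RNA per cell cannot be told apart. The part of tissue makeup in these results was not tested.

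**Figure D4:**
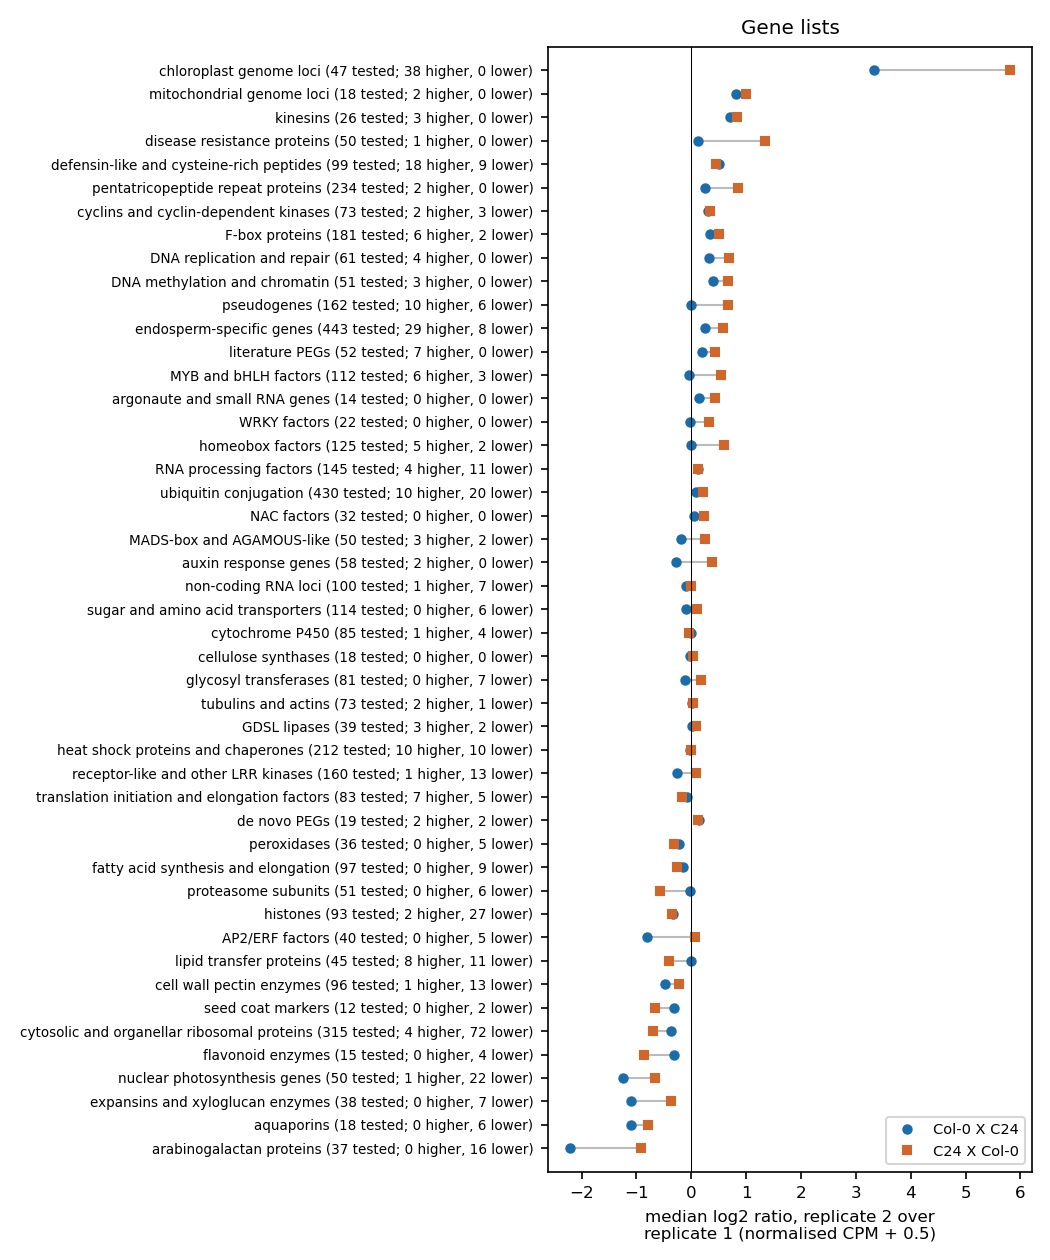
Median log2 ratio of replicate 2 over replicate 1 within each cross for the 47 lists with at least 10 tested loci, with the numbers tested and called in the labels. Chloroplast loci lie at 3.34 and 5.81 and arabinogalactan proteins at -2.21 and -0.92, and most lists of regulators lie near 0 or farther right in the reciprocal cross.

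The remaining lists are given by their calls, beside the 3.23% of all loci called higher and 6.68% called lower. Ubiquitin conjugation had 10 higher and 20 lower of 430 (2.33% and 4.65%), and heat shock proteins and chaperones 10 and 10 of 212 (4.72% and 4.72%). Transporters of sugars and amino acids had 0 and 6 of 114 (0.0% and 5.26%), and glycosyl transferases 0 and 7 of 81 (0.0% and 8.64%). Receptor-like and other LRR kinases had 1 and 13 of 160 (0.625% and 8.12%), and tubulins and actins 2 and 1 of 73 (2.74% and 1.37%). GDSL lipases had 3 and 2 of 39 (7.69% and 5.13%), and non-coding RNA loci 1 and 7 of 100 (1.0% and 7.0%). Cellulose synthases had 0 and 0 of 18, and argonaute and small RNA genes 0 and 0 of 14. Storage proteins and oleosins, and transposable element genes, had 0 and 0 of 2 and of 8. AT4G36520, annotated as a DnaJ-domain chaperone, was the chaperone called higher with the lowest p, at 32.9 and 237 CPM, and at 15.7 and 545 CPM. Among non-coding loci, AT2G47895 was at 845 and 44.7 CPM, and at 3942 and 276 CPM, and shares 26.2% of its windows with AT2G47890. The spliceosomal RNA U1.5 (AT1G08115) had 34 and 0 reads, and 38 and 1 reads, and a transcript of 165 bases.

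Base composition, length and exon number each went with the change, in both crosses. In quintiles of nuclear protein-coding loci by transcript GC, the lowest up to 39.5% and the highest from 43.17%, the median was 0.05 and -0.32 for the lowest and the highest with Col-0 mothers, and 0.52 and -0.43 in the reciprocal cross. The highest quintile had 35 higher and 484 lower calls of 3278 and the lowest 181 and 159 of 3297. By length, the shortest quintile (up to 1156 bases) had 118 higher and 469 lower calls, and the longest (from 2564 bases) 152 and 50. Loci of 1 exon had 348 lower calls of 2176, or 16.0%, and loci of 9 exons or more 35 of 4370, or 0.801%, while the percent called higher was 2.94 and 3.5.

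These features overlap, so they were crossed. Above 100 CPM, 50.3% of 165 loci with 1 exon were called lower and 4.28% of 397 with 9 or more. At 10 to 30 CPM the same percentages were 18.8 and 0.12. Within the highest GC quintile, 26.8% of loci with 1 exon and 2.34% of those with 9 or more were lower, and within the lowest GC quintile 11% and 0.0%. In the shortest quintile of transcripts the medians for 1 exon and for 5 to 8 exons were -0.63 and -0.07. Above 100 CPM, the lowest and the highest GC quintile had medians of -0.24 and -0.75. Exon number, GC and abundance thus each went with the percent called lower within classes of another of these features. That percent also depends on the number of reads per locus, which rises with abundance. The medians for loci of 1 exon were -1.22 above 100 CPM and -0.34 at 10 to 30 CPM. With offsets for transcript GC, edgeR called 366 loci higher and 800 lower.

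**Figure D5:**
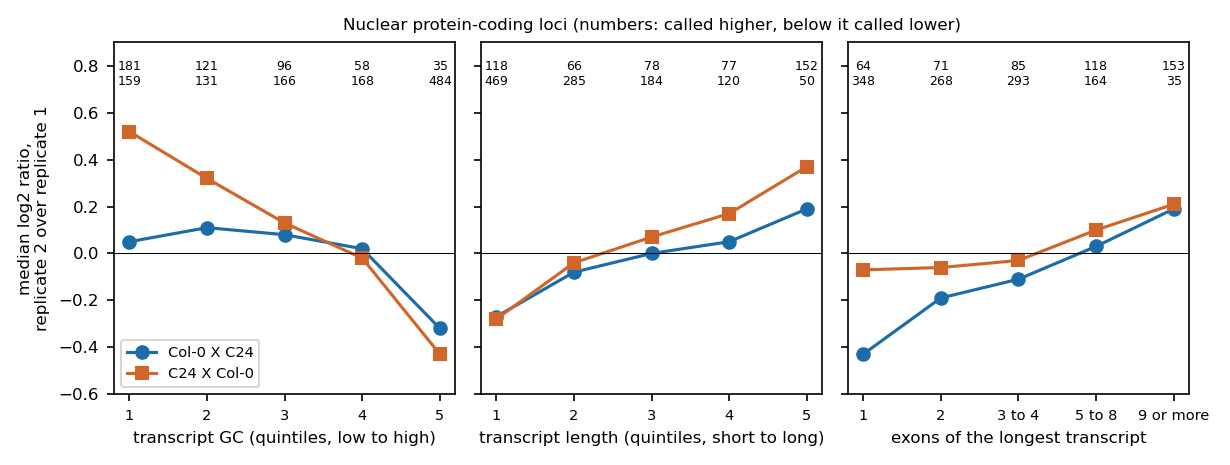
Median log2 ratio of replicate 2 over replicate 1 in each cross for nuclear protein-coding loci, by quintiles of transcript GC, quintiles of transcript length and number of exons; the numbers in each column are loci called higher and, under them, called lower. The medians of the highest GC quintile are -0.32 and -0.43, and the percent called lower drops from 16.0 at 1 exon to 0.801 at 9 or more.

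A called neighbour in the order of tested nuclear loci was present for 10.2% of the 502 nuclear loci called higher and for 5.91% of all, and for 16.2% of the 1121 called lower and 12.8% of all.

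The minimum decided some calls. It was met only by both replicate 2 libraries at 392 members, of which 95 were called higher, and only by both replicate 1 libraries at 57, of which 4 were called lower. Without these 449 loci, a setting chosen after seeing the data, edgeR called 537 higher and 1188 lower. Just inside the minimum lay 240 loci whose second highest count was 10, and just outside 254 at which it was 9. With 1 library left out the cross term cannot be kept, and edgeR, which then takes the lone library to vary like the others, called 0 and 0 loci without replicate 1 from Col-0 mothers (2995 at an unadjusted p under 0.05) and 0 and 0 without the reciprocal replicate 1 (1079). It called 51 higher and 1 lower without replicate 2 from Col-0 mothers, and 30 and 18 without the reciprocal replicate 2. No exact test of 2 libraries against 2 can give a two-sided p under 0.333 for a single value, so single loci rest on the spread shared across loci.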

How the data were processed

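For each locus the authors deposited read counts, not normalised, from mRNA-seq libraries of whole seeds. Per the processing notes and the study's methods, trimmed reads were aligned with BWA to the cDNA models of TAIR10, SAMtools 0.1.7 was used, and counts were merged per locus. Strand and the treatment of reads with several matches are not given in the sources used here. Loci with at least 10 reads in at least 2 of 4 libraries were fitted with edgeR 4.0.16 (R 4.3.3) by TMM, cross plus replicate, robust glmQLFit and glmQLFTest, with Benjamini-Hochberg adjustment over 16779 loci. SE were derived from the change and its F statistic. The common dispersion was 0.0733. DESeq2 1.42.0 and limma 3.58.1 served as alternatives. CPM of the N columns and CPM summed over lists are per deposited total, without TMM factors. Annotation, GC and lengths of the longest transcript are from TAIR10.1, which matched 32835 of 33602 loci. Sequences are from the RefSeq assembly TAIR10.1. Shared sequence was sought as exact 80-base windows. The fit was tested on simulated data. The loci, the 52 lists and the tests were chosen with earlier results of these data known. Genes were named by rule: the 10 nuclear protein-coding loci of lowest p per direction with the same sign in both crosses, up to 3 called members per list and direction, and the 10 most abundant. From these the text gives a selection. Amplicon libraries and interspecific crosses were not analysed here. Replicates are said to be biological, and the p-values measure the spread left after the cross is fitted.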

Additional observations from a re-analysis of the deposited data

Results flagged for a closer look

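Some values had opposite signs in the 2 crosses, and the difference between crosses was not tested for any of them, with 1 library per cross and replicate. Among the 1000 most abundant loci, AT4G06477, a pseudogene, had a log2 ratio of -2.63 in Col-0 X C24 and 2.12 in the reciprocal cross, and AT2G21465 had 1.43 and -3.80. Of the named marker genes, STK had -0.15 and 0.63, TT16 -0.30 and 0.07, and AGL62 -0.88 and 1.32. The list medians were -0.19 and 0.25 for MADS-box factors, -0.28 and 0.37 for auxin response genes, and -0.12 and 0.18 for glycosyl transferases.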

How the results depend on the processing

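Main counts were 542 higher and 1121 lower. Upper quartile scaling gave 943 higher, total reads alone 255 higher and 125 lower, DESeq2 319 higher, no filter 927 higher, and no cross term 0 and 0. Leaving out a library gave 0 to 51 higher and 0 to 18 lower. All other settings stayed within 1.5 times. Cyclic loess offsets, which take out the trend with abundance, gave 613 and 1041. The share of reads in the 100 most abundant loci, replicate 2 over replicate 1, was 0.756 with Col-0 mothers and 0.695 in the reciprocal cross. It was 0.846 and 0.761 with ranks from replicate 2 of the other cross, 0.826 and 0.689 with ranks by mean CPM, 0.773 and 0.676 per kilobase, 0.554 and 0.701 for 10 loci, 0.817 and 0.749 for 1000 loci, and 0.758 and 0.700 over nuclear loci. Lists with more lower than higher calls numbered 22, against 12 with total reads alone, 0 with no cross term and 0 to 3 with a library left out. Of the 86 loci given with values, 81 were called, 60 with total reads alone, 63 with GC offsets, 0 with no cross term and 0 to 16 with a library left out. Relative to all loci, cyclic loess turned the medians of seed coat markers to 0.09, proteasome subunits to 0.06 and flavonoid enzymes to 0.03, with AGL62 at -0.02 and TT16 at 0.02. TT16 was at 0.40 with total reads alone, and GC offsets put STK at -0.15 and AGL62 at -0.82. With a library left out, values ran from lowest to highest as follows. For lists, relative to all loci, these were -1.09 to 0.18 for AP2/ERF factors, -1.56 to 0.37 for lipid transfer proteins, -2.12 to 0.12 for nuclear photosynthesis genes and -0.03 to 0.72 for pseudogenes. For genes they were -0.02 to 1.86 for GILT, -0.55 to 1.20 for STK, -0.39 to 0.16 for TT16, -1.09 to 1.47 for AGL62 and -6.03 to 0.45 for AT3G49270. The cause was not tested. No paired analysis was possible with the replicate number as the block because the replicate number is itself the difference tested. Depth limits loci near 10 reads, and 1 library per cross and replicate limits the rest.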
